A study of Homo sapiens with 6 samples.

Results

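The genes described here make the 3′ ends of RNA polymerase II transcripts: the cleavage and polyadenylation machinery of mRNA and the Integrator complex. They were taken from the gene table as protein-coding rows whose name starts with CPSF, CSTF or INTS and a digit, or is FIP1L1, WDR33, PCF11, CLP1, NUDT21, SYMPK, PAPOLA, PAPOLG, RBBP6 or PABPN1. The rule found 36 of the 58735 genes listed, of which 19951 are protein-coding. It used names only, not measured values. Of the 36, 21 belong to the polyadenylation machinery and 15 to Integrator, and 35 had enough reads to be tested. CPSF4L was not tested, with 2, 1 and 0 reads in the control libraries and 0, 2 and 5 after knockdown.

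Gene-level mRNA was measured by RNA-seq in 6 libraries of RPE-1, an established human line of retinal pigment epithelium. All cells carried GFP-tagged CETN2, which marks centrioles, and a PLK4 gene driven by a doxycycline-inducible promoter, and PLK4 was induced in all of them with doxycycline at 1 µg/mL. The 3 siSON libraries came from cells given an siRNA against SON, a nuclear speckle protein needed for splicing of many pre-mRNAs, and the 3 siControl libraries from cells given a scramble siRNA. The comparison asks how mRNA levels differ when SON is depleted, always with PLK4 induced. No cells without PLK4 induction are among these samples. Whether the replicates were separate cultures is not stated, so p-values measure the spread between these libraries, which may be technical.

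Library totals ran from 54572365 to 69764836 counts. SON itself was at 295.3, 312.7 and 283.9 CPM (reads scaled to a common library size with TMM factors) in the control libraries and at 67.96, 69.96 and 65.00 after knockdown, 22.8% of control. In bulk RNA a lower level in every cell and loss from some cells cannot be told apart. Keratin genes KRT8 (556.1 to 778.0 CPM) and KRT18 (208.1 to 621.7 CPM) were high, as were the eye field and pigment epithelium regulators PAX6, MITF and OTX2 (19.7 to 140.7 CPM). The mature pigment epithelium genes RPE65 (at most 0.258 CPM) and RLBP1 (at most 0.0937 CPM) were near the floor, while BEST1, another gene of that kind, was at 7.71 to 14.8 CPM. Of markers of other cell types, CD3E (blood) was at 0, PTPRC (blood) at 0.275 to 1.98 CPM, PECAM1 (endothelium) at 0.256 to 1.29 CPM, CDH5 (endothelium) at most 0.157 CPM and DES (muscle) at 0.0172 to 1.06 CPM. The chi-square per degree of freedom between replicates was 16.6 to 23.6 for pairs that include replicate 1 and 6.68 and 6.69 for replicates 2 and 3.

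The end of an mRNA is made by an endonuclease cut followed by addition of a poly(A) tail. In the cleavage and polyadenylation specificity factor, CPSF1, CPSF4, WDR33 and FIP1L1 recognise the AAUAAA hexamer, and CPSF3 cuts the RNA in a module with CPSF2 and SYMPK. The cleavage stimulation factor CstF binds GU-rich sequence downstream of the cut, cleavage factor I (CFI) binds UGUA upstream of it, and cleavage factor II (CFII) helps activate the cut. Integrator is a separate assembly built around INTS11, a nuclease related to CPSF3, which cuts small nuclear RNA precursors and ends transcription of many promoter-proximal polymerases.

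Of the 35 tested genes, 27 changed after SON knockdown at an adjusted p under 0.05, 15 higher and 12 lower, and 8 were not called. That share was close to the background: 71.7% of all 16591 genes tested and 77.4% of the protein-coding ones were called, 35.2% of all genes higher and 36.5% lower. The count says little by itself, and what follows is which subunits moved and by how much. At least 1.5-fold changes were called for 18 of the 35, 9 in each direction, beside 48.6% of all genes. Changes of at least 2-fold were called for 6 of the 35, beside 29.3% of all genes. WDR33 was the 1 that rose, and CSTF3, CPSF4, INTS6L, INTS11 and INTS1 fell. The 3 knockdown libraries did not overlap the 3 controls in 27 of the 35 genes, against 75.1% of all genes.

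The median log2 fold change (siSON over siControl) was 0.07 for these genes, -0.03 for all genes tested and 0.03 for protein-coding genes. The median size of the change, sign ignored, was 0.62, beside 0.63 and 0.60. The genes that rose lay between 0.15 and 1.44, with a median of 0.72, and those that fell lay between -2.22 and -0.16, with a median of -0.86. Among polyadenylation genes 11 rose and 5 fell of 20 tested, with a median of 0.22. Among Integrator genes 4 rose and 7 fell of 15, with a median of 0.00. The summed CPM of all members was 2015, 2045 and 2048 in the control libraries and 2164, 2125 and 2160 after knockdown, slightly higher in each knockdown library than in any control. That direction depends on the TMM factors (1.061, 1.08 and 1.072 in control, 0.9256, 0.9446 and 0.9318 in knockdown libraries). As a share of total counts, without these factors, the sum was lower in each knockdown library than in any control.

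**Figure D1:**
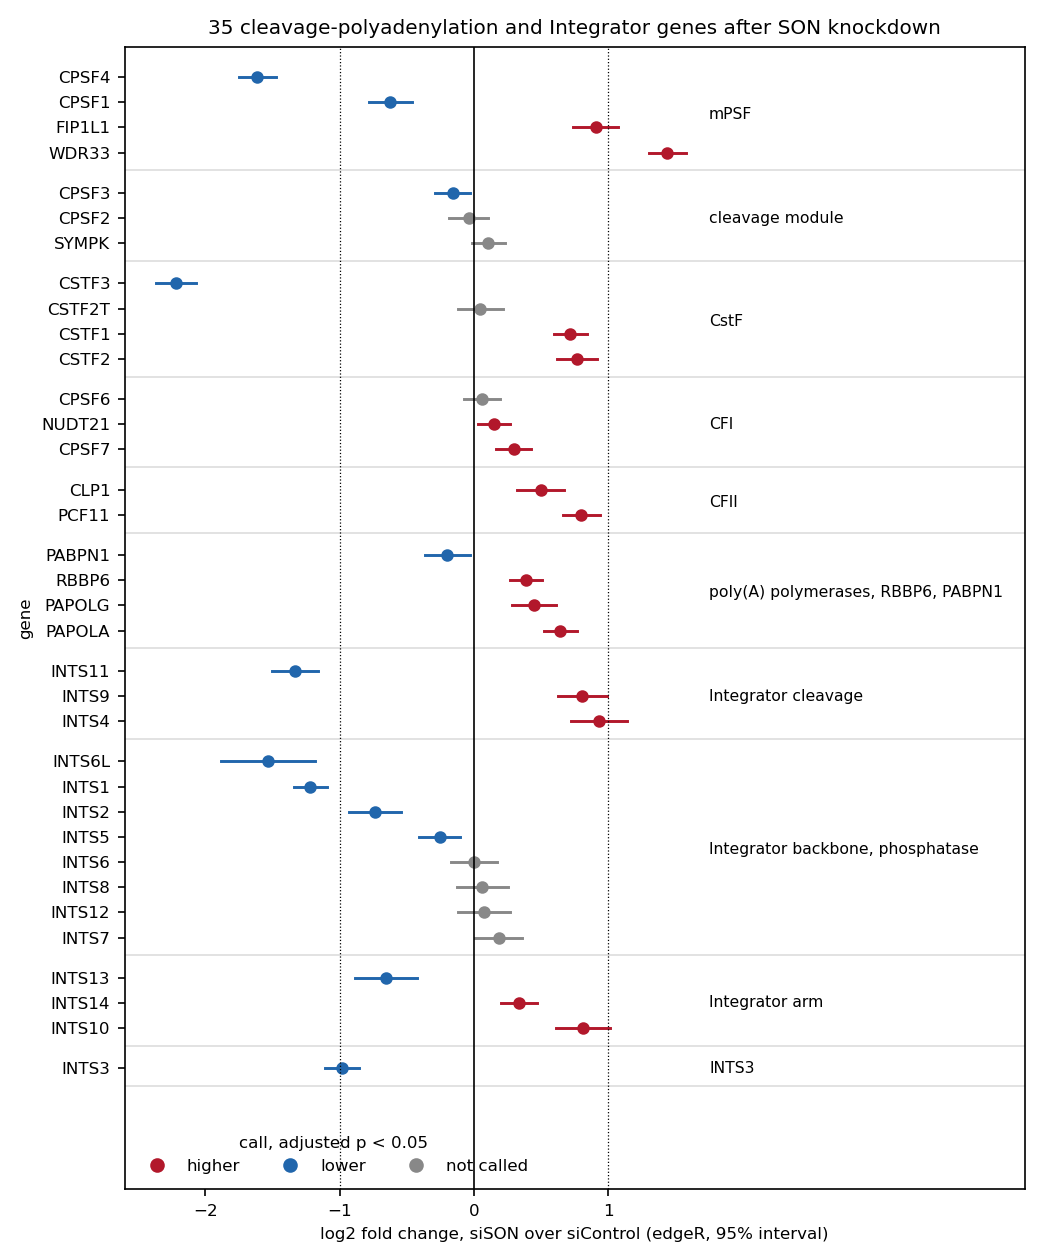
Log2 fold change of each of the 35 tested genes (siSON over siControl, x axis) by functional subgroup (y axis), with edgeR's 95% interval as bars; colours give the call at an adjusted p under 0.05 and dotted lines mark a 2-fold change. Within the poly(A) signal factors (mPSF), CstF and the Integrator cleavage module, genes called higher and lower stand side by side, from CSTF3 at -2.22 to WDR33 at 1.44.

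For 4 members the DNA between their start and that of a neighbouring gene on the other strand is shown, because the values of both genes are compared. CSTF3, CPSF4 and INTS11 fell at least 2-fold, and INTS14 is paired with a gene that moved the opposite way. Each line runs 5′ to 3′ on the member's strand, from just after the neighbour's first base to just before the member's first base, as RefSeq places them on GRCh38.p14. The stretches are chr11:33161481-33161656 for CSTF3 (minus strand), chr7:99438799-99438942 for CPSF4 (plus strand), chr1:1324661-1324801 for INTS11 (minus strand) and chr15:65611132-65611349 for INTS14 (minus strand). Capitals mark every match, on either strand, to CCAAT, to GGGCGG (the GC box) and to CCGGAAG (an ETS-type core); matches may overlap.
CSTF3: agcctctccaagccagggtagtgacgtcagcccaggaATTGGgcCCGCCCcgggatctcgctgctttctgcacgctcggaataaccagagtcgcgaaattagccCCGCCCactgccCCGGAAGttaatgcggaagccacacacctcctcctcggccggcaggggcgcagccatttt
CPSF4: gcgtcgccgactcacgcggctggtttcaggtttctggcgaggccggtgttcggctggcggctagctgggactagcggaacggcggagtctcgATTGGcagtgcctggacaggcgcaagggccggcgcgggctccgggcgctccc
INTS11: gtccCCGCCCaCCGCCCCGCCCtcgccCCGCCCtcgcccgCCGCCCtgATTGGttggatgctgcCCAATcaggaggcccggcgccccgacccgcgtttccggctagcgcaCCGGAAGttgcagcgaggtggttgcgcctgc
INTS14: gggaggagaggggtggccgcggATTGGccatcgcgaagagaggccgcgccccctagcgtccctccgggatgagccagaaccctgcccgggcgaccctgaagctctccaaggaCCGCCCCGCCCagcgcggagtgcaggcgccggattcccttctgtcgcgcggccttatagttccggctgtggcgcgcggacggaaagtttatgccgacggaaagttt
All 4 stretches held a CCAAT match, and INTS11 held 2. They were picked, by the changes of their genes, from 9 members with such a neighbour. Of the stretches not printed, that of INTS7 held 1 CCAAT match and that of NUDT21 held 3. Those of CPSF3, INTS12 and CPSF7 held 0. GC boxes were most frequent in INTS11, with 5, and CPSF4 had none. The ETS-type core was present once each in CSTF3 and INTS11 and was not found in CPSF4 or INTS14.

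Promoter windows of 300 bases from RefSeq (GRCh38.p14, from 250 bases before to 50 after a start) matched 30 of the 36 members. CCAAT was in 53.3% of those windows, GGGCGG in 73.3% and CCGGAAG in 33.3%. Among 10611 windows of tested protein-coding genes the shares were 36.7%, 69.3% and 18.7%, and among all 27305 windows they were 35.7%, 44.6% and 10.7%. These are matches of letters in a window and not measured binding.

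The 4 tested genes of the poly(A) signal recognition module (mPSF) split evenly, with CPSF4 and CPSF1 lower and WDR33 and FIP1L1 higher. CPSF4 (ENSG00000160917, chr7:99438922-99457371, 8 exons, GRCh38 in GENCODE release 29) is the zinc finger subunit that contacts the hexamer. It was at 59.6, 57.4 and 57.9 CPM in the control libraries and at 19.57, 18.54 and 19.04 after knockdown. Its knockdown values were less than all 3 controls by a wide margin, at 32.7% of the control mean, and CPSF4 fell by 1.61 on the log2 scale (SE 0.06, edgeR adjusted p = 4.10e-09). WDR33 (ENSG00000136709, chr2:127701022-127811187, 22 exons), the WD-repeat subunit that contacts the same hexamer together with CPSF4, moved the other way. WDR33 was at 40.2, 39.2 and 38.0 CPM in the control libraries and at 113.6, 100.7 and 104.1 after knockdown. All knockdown libraries were above all controls, at 271.1% of the control mean, with a log2 fold change of 1.44 (SE 0.06, edgeR adjusted p = 8.64e-09).

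FIP1L1 (ENSG00000145216, chr4:53377643-53460861, 18 exons) tethers poly(A) polymerase to the complex. It was at 32.5, 28.3 and 27.0 CPM in the control libraries and at 55.8, 53.1 and 55.5 after knockdown. The groups did not overlap, and FIP1L1 rose by 0.91 on the log2 scale (SE 0.08, edgeR adjusted p = 1.06e-06). CPSF1 (ENSG00000071894, chr8:144393229-144409349, 38 exons), the scaffold of the module, was at 93.4, 89.2 and 85.1 CPM in the control libraries and at 59.8, 62.2 and 51.8 after knockdown. It fell by 0.62 on the log2 scale in groups that did not overlap (SE 0.07, edgeR adjusted p = 1.61e-05). CPSF1 has a median intron length of 85 bases, and 32 of its introns are under 150 bases. CPSF4, which fell further, has a median of 2002 bases and 0 such introns. For WDR33 the values are 1435 bases and 2, and for FIP1L1 they are 2061 bases and 1.

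On a scale of CPM per kb of annotated exon, CPSF1 (14.7 ± 0.68, SD, n = 3) and CPSF4 (13.7 ± 0.26) were the most abundant of the 4 transcripts in control cells, then FIP1L1 (5.19 ± 0.51) and WDR33 (2.68 ± 0.07). After knockdown FIP1L1 (9.73 ± 0.26) and CPSF1 (9.54 ± 0.89) were level within their spread, followed by WDR33 (7.28 ± 0.46) and CPSF4 (4.48 ± 0.12). With the length of 1 principal transcript in place of all exons the order differed. It then ran CPSF4 (34.5), CPSF1 (19.9), FIP1L1 (13.3) and WDR33 (4.13) in control cells, and FIP1L1 (24.9), CPSF1 (12.9), CPSF4 (11.3) and WDR33 (11.2) after knockdown. With either length CPSF4 was above FIP1L1 and WDR33 in control cells and below FIP1L1 after knockdown. Parts of the exons of FIP1L1 and WDR33 are shared with overlapping genes, 41.1% of 50-base windows for FIP1L1 and 25.2% for WDR33 (SFT2D3). For FIP1L1 the largest partner was LNX1 on the opposite strand, with 25.05%, and the next was AC058822.1 on the same strand. The strand setting of the counting is not given, and it would not separate genes on the same strand. LNX1 itself was at 0.513 CPM in control and 0.262 CPM in knockdown cells and was not called. SFT2D3 was called lower (-0.74, with 6.93 CPM in control and 4.15 CPM in knockdown cells), opposite to WDR33.

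**Figure D2:**
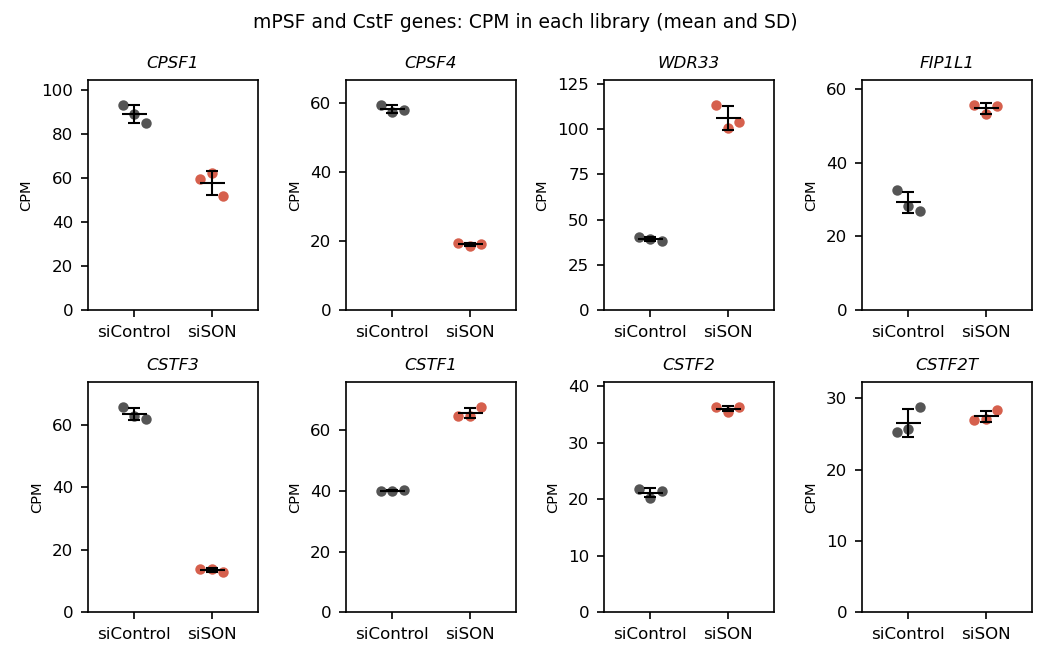
CPM (y axis, from 0, a separate scale per gene) in each of the 3 siControl and 3 siSON libraries for the mPSF and CstF genes; bars are mean and SD. CPSF1, CPSF4 and CSTF3 are lower in every siSON library, WDR33, FIP1L1, CSTF1 and CSTF2 are higher in every one, and the CSTF2T libraries overlap.

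In the cleavage module, which holds the nuclease, no gene changed by 1.5-fold. CPSF3 (ENSG00000119203, chr2:9423568-9473101), the endonuclease that cuts the pre-mRNA, was at 60.1, 57.3 and 62.1 CPM in the control libraries and at 51.24, 54.45 and 54.99 after knockdown. The groups did not overlap but were close, and CPSF3 was called lower at a log2 fold change of -0.16 (SE 0.06, edgeR adjusted p = 0.0335). The call was lost with DESeq2 (adjusted p = 0.0781), without a filter on low counts (0.0672) and when any 1 of control library 3 or knockdown libraries 1, 2 or 3 was left out (0.0591 to 0.111). It was stronger with library size alone (-0.36, adjusted p = 3.60e-04) and under cyclic loess (-0.32, adjusted p = 5.66e-04). CPSF2, its catalytically inactive relative, was not called at a log2 fold change of -0.04 (95% interval -0.18 to 0.11), but was called lower with library size alone (-0.24, adjusted p = 0.0106) and under cyclic loess (-0.26, adjusted p = 0.00372). SYMPK, the scaffold symplekin, was not called at 0.11 (95% interval -0.02 to 0.23).

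CstF held the lowest log2 fold change of all the members, in its scaffold gene CSTF3. CSTF3 (ENSG00000176102, chr11:33077188-33162371, 21 exons) encodes CstF77, which dimerises and bridges the other subunits. It was at 65.6, 62.8 and 61.8 CPM in the control libraries and at 13.96, 13.81 and 12.98 after knockdown. The libraries of each group lay close together and far from the other group, at 21.4% of the control mean. CSTF3 fell by 2.22 (SE 0.07, edgeR adjusted p = 1.27e-09), which is similar in size to that of SON at -2.14. CSTF1 (ENSG00000101138, chr20:56392371-56406369), the WD-repeat subunit CstF50, was at 39.9, 40.0 and 40.3 CPM in the control libraries and at 64.9, 64.9 and 67.8 after knockdown. CSTF1 rose by 0.72 in groups that did not overlap (SE 0.06, edgeR adjusted p = 5.34e-07).

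CSTF2 (ENSG00000101811, chrX:100820359-100840932, 14 exons), the CstF64 subunit that binds GU-rich RNA, was at 21.8, 20.3 and 21.4 CPM in the control libraries and at 36.4, 35.5 and 36.3 after knockdown. It rose by 0.77 on the log2 scale, again without overlap (SE 0.07, edgeR adjusted p = 1.18e-06). Its paralog CSTF2T (chr10:51695487-51699591) is a retrogene with 1 exon and no intron. CSTF2T was at 25.2, 25.7 and 28.8 CPM in the control libraries and at 27.0, 27.1 and 28.3 after knockdown. Those ranges overlapped, and CSTF2T was not called, with a log2 fold change of 0.05 (95% interval -0.12 to 0.21). No 50-base window of CSTF2 or CSTF2T exons was shared with another gene.

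Per kb of annotated exon, CSTF3 was the most abundant CstF transcript in control cells (14.1 ± 0.44 CPM per kb, SD, n = 3), above CSTF2 (9.68 ± 0.35), CSTF1 (8.35 ± 0.04) and CSTF2T (6.47 ± 0.47). After knockdown it was the least abundant, at 3.01 ± 0.12, below CSTF2T (6.69 ± 0.18), CSTF1 (13.7 ± 0.34) and CSTF2 (16.5 ± 0.22). The spreads of neighbours in both orders did not overlap, and the rank of CSTF3 was the same with the principal transcript's length (22.7 to 4.86 CPM per kb). CSTF3 exons share 10.4% of 50-base windows with other genes, mostly TCP11L1 on the opposite strand, which was also lower (43.0 to 20.0 CPM, log2 fold change -1.11). The part of that overlap in the CSTF3 value was not tested.

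**Figure D3:**
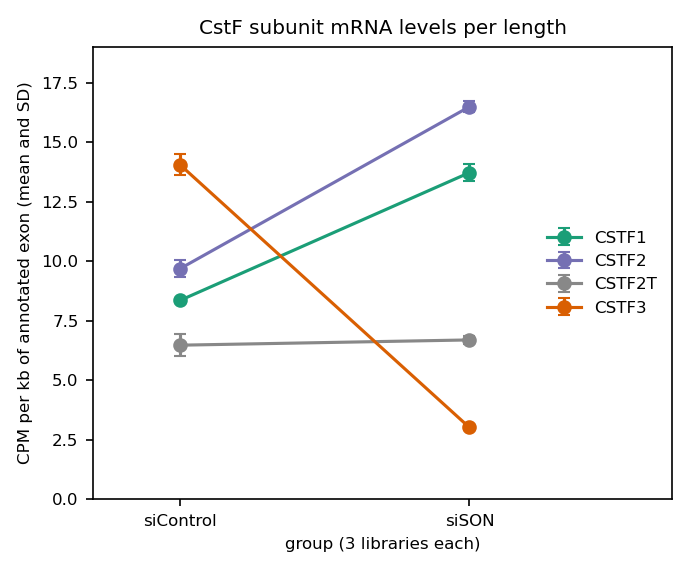
CstF transcript levels per length (CPM per kb of annotated exon, y axis; mean and SD of 3 libraries) in siControl and siSON cells (x axis). The CSTF3 line falls from 14.1 to 3.01 and crosses those of CSTF2 (9.68 to 16.5), CSTF1 (8.35 to 13.7) and CSTF2T (6.47 to 6.69).

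Of the 9 other polyadenylation factors 7 rose, 1 fell and 1 was not called, beside 35.2% higher and 36.5% lower among all genes. For PCF11 (ENSG00000165494, chr11:83156988-83187451), the CFII subunit that binds the polymerase's C-terminal domain, values were 30.8, 33.9 and 33.4 CPM in control and 57.6, 57.4 and 55.8 CPM in knockdown libraries. PCF11 rose by 0.80 with no overlap (SE 0.06, edgeR adjusted p = 5.66e-07). Its exons share 18.0% of windows with other genes, mostly the antisense PCF11-AS1. CLP1, the RNA kinase of CFII, rose by 0.50 (SE 0.08, edgeR adjusted p = 1.61e-04).

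PAPOLA (ENSG00000090060, chr14:96501433-96567111), the main nuclear poly(A) polymerase and the most counted of these genes, was at 233.8, 261.1 and 260.9 CPM in the control libraries and at 394.5, 384.4 and 401.3 after knockdown. All knockdown libraries were above all controls, and PAPOLA rose by 0.64 (SE 0.06, edgeR adjusted p = 1.11e-06). It was 0.29 under cyclic loess normalisation, which removes trends with expression level. PAPOLG, a second nuclear poly(A) polymerase, rose by 0.44, and RBBP6, a cleavage activator with a ubiquitin ligase domain, rose by 0.39. With scaling by library size alone those values were 0.25 for PAPOLG, 0.19 for RBBP6 and 0.30 for CLP1, all still called. PABPN1, the nuclear poly(A)-binding protein that sets tail length, was called lower at -0.20 (SE 0.08, edgeR adjusted p = 0.0336). Its groups overlapped, with 63.2, 63.9 and 57.9 CPM against 59.5, 50.8 and 50.7, and the call was lost when any 1 of control libraries 1 or 2 or knockdown libraries 2 or 3 was left out (adjusted p = 0.0503 to 0.152). PABPN1 was at -0.40 with library size alone and at -0.36 under cyclic loess, called in both.

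CFI held the smallest rises among the polyadenylation factors. Of its subunits CPSF7 had the smallest adjusted p. CPSF7, 1 of 2 alternative large subunits, was at 96.1, 91.5 and 88.9 CPM in the control libraries and at 114.8, 106.3 and 118.4 after knockdown. The groups did not overlap, and CPSF7 rose by 0.30 (SE 0.06, edgeR adjusted p = 8.81e-04). It was no longer called with scaling by library size alone (0.10, adjusted p = 0.141) or under cyclic loess (0.05, adjusted p = 0.428). NUDT21, the CFI subunit that binds UGUA, was at 158.5, 163.1 and 158.8 CPM against 168.0, 178.3 and 186.6, a log2 fold change of 0.15 (SE 0.05, edgeR adjusted p = 0.0257). NUDT21 has no firm direction: it was -0.05 with library size alone and -0.15 under cyclic loess (adjusted p = 0.0201), and the call was lost with a mean count of at least 50 and in 5 of the 6 fits that left out 1 library. CPSF6, the other large subunit, was not called at 0.06 (95% interval -0.08 to 0.19), and was called lower under cyclic loess (-0.17, adjusted p = 0.0282).

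In Integrator, the cleavage module split, with the nuclease lower and its partners higher. INTS11 (ENSG00000127054, chr1:1311585-1324691, 17 exons), the catalytic subunit, was at 62.3, 58.6 and 54.5 CPM in the control libraries and at 24.0, 24.2 and 21.4 after knockdown. The groups were well apart, at 39.7% of the control mean, and INTS11 fell by 1.33 on the log2 scale (SE 0.08, edgeR adjusted p = 5.01e-08). INTS9 (ENSG00000104299, chr8:28767661-28890242), the inactive relative that pairs with INTS11, was at 14.9, 14.3 and 14.7 CPM in the control libraries and at 28.1, 23.7 and 25.2 after knockdown. INTS9 rose by 0.81 with no overlap (SE 0.08, edgeR adjusted p = 5.09e-06). INTS4 (ENSG00000149262, chr11:77878720-77994678), which holds that pair together, was at 21.0, 18.9 and 16.9 CPM in the control libraries and at 39.73, 35.04 and 33.54 after knockdown. It rose by 0.93 (SE 0.10, edgeR adjusted p = 4.86e-06), also without overlap. INTS4 shares 18.6% of its windows with other genes, mostly the pseudogene INTS4P2, so reads could be split between them.

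The backbone and phosphatase module held 4 genes that fell, 4 that were not called and none that rose. Among all genes tested, 36.5% were called lower and 35.2% higher. INTS1 (ENSG00000164880, chr7:1470277-1504367, 48 exons), the largest subunit of the backbone, was at 150.3, 152.4 and 157.8 CPM in the control libraries and at 65.2, 69.0 and 63.8 after knockdown. The knockdown libraries stood at 43.0% of the control mean, a log2 fold change of -1.22 (SE 0.05, edgeR adjusted p = 9.72e-09). INTS2 (ENSG00000108506, chr17:61865367-61928016), a backbone subunit, was at 17.0, 16.3 and 17.1 CPM in control and at 9.25, 10.9 and 10.1 CPM in knockdown libraries. INTS2 fell by 0.74 in groups that did not overlap (SE 0.09, edgeR adjusted p = 1.69e-05). INTS5, a phosphatase-module gene with 1 intron, fell by 0.26 (SE 0.07, edgeR adjusted p = 6.76e-03), and by 0.45 with library size alone.

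INTS6L (ENSG00000165359, chrX:135520643-135582510, 17 exons), a paralog of the phosphatase-module subunit INTS6, was the least abundant Integrator transcript. It was at 11.0, 9.83 and 8.94 CPM in the control libraries and at 3.53, 4.11 and 2.62 after knockdown. All knockdown libraries were below all controls, at 34.5% of the control mean, and INTS6L fell by 1.53 (SE 0.16, edgeR adjusted p = 5.00e-06). INTS6 (chr13:51354077-51454264) was at 36.2, 43.9 and 42.0 CPM in the control libraries and at 40.3, 41.3 and 40.6 after knockdown. The ranges overlapped, and INTS6 was not called, at 0.00 (95% interval -0.17 to 0.17). INTS8 (0.06, 95% interval -0.13 to 0.25), INTS12 (0.07, -0.12 to 0.26) and INTS7 (0.18, 0.01 to 0.36, edgeR adjusted p = 0.0559) were not called either. INTS7 passed the threshold in 4 other fits, among them those without knockdown library 1 (0.26) and without a filter on low counts (0.19). INTS8 shares 19.5% of its windows, nearly all with CCNE2 on the opposite strand, which fell from 23.4 to 1.06 CPM.

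The arm module of INTS10, INTS13 and INTS14, which faces away from the nuclease, moved in both directions. INTS10 (ENSG00000104613, chr8:19817140-19852083) was at 19.3, 21.4 and 21.8 CPM in the control libraries and at 41.1, 33.8 and 34.5 after knockdown. INTS10 rose by 0.81 with no overlap (SE 0.09, edgeR adjusted p = 1.01e-05). INTS13 (ENSG00000064102, chr12:26905181-26938326) was at 63.6, 74.0 and 80.6 CPM in the control libraries and at 39.5, 49.3 and 49.9 after knockdown. Replicate 1 was the lowest in both groups, but the groups did not overlap, and INTS13 fell by 0.65 (SE 0.11, edgeR adjusted p = 2.06e-04). INTS14 rose by 0.33 (SE 0.06, edgeR adjusted p = 4.73e-04), and was no longer called with library size alone (0.14, adjusted p = 0.0658). INTS3 (ENSG00000143624, chr1:153728067-153774808, 30 exons), which also forms the SOSS complex on single-stranded DNA, was at 71.8, 69.8 and 69.4 CPM in the control libraries and at 34.4, 35.8 and 36.6 after knockdown. It fell by 0.98 with no overlap (SE 0.06, edgeR adjusted p = 6.01e-08), to 50.6% of control.

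**Figure D4:**
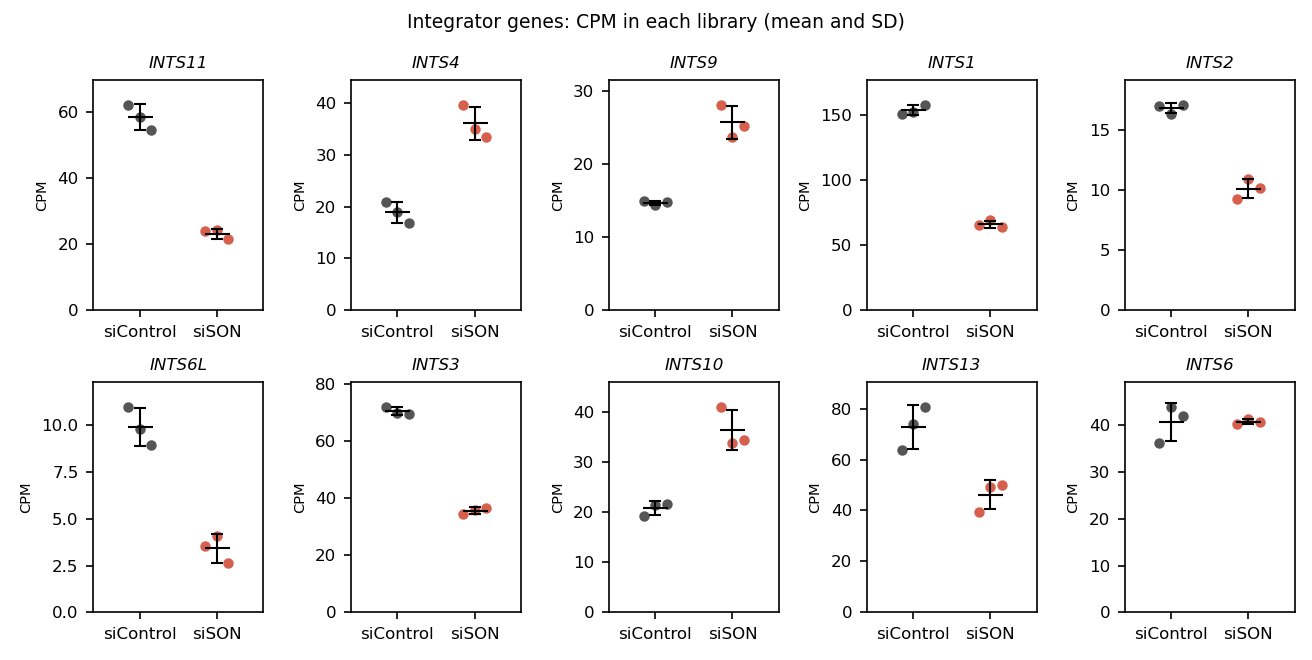
CPM (y axis, from 0, a separate scale per gene) in each siControl and siSON library for 10 Integrator genes; bars are mean and SD of 3 libraries. INTS11, INTS1, INTS2, INTS6L, INTS3 and INTS13 are lower in every siSON library, INTS4, INTS9 and INTS10 are higher in every one, and the INTS6 libraries overlap.

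Per kb of annotated exon, INTS13 was the most abundant Integrator transcript in both groups (21.8 ± 2.56 and 13.8 ± 1.74 CPM per kb, SD, n = 3) and INTS6L the least (1.38 ± 0.14 and 0.476 ± 0.10). In control cells INTS6L and INTS6 (1.59 ± 0.16) were level within their spread. INTS11 was at 7.11 ± 0.48 in control cells, rank 5 of 15, and at 2.82 ± 0.19 after knockdown, rank 12. INTS9 went from 2.99 ± 0.06 to 5.23 ± 0.46, and INTS4 from 3.12 ± 0.33 to 5.94 ± 0.53. INTS11 was thus above both of its cleavage partners in control cells and below both after knockdown. With the principal transcript's length INTS11 was rank 1 of 15 in control cells (27.2 CPM per kb) and rank 6 after knockdown (10.8). On that length it stayed above INTS9 (10.1) and was below INTS4 (11.4), so the reversal against INTS9 depends on the length used. INTS13 was then rank 2 in both groups (24.5 and 15.6), with INTS14 rank 1 after knockdown (19.6), and INTS6L was again last.

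Paralogs of the same role were compared by the log2 ratio of their counts in each library, which does not depend on the scaling of libraries. The smallest p an exact 2-sided permutation test of 3 against 3 libraries can give is 0.1, and all 4 pairs gave that value, 0.1 also after adjustment over the 4. INTS6 to INTS6L was 1.72, 2.16 and 2.23 in the control libraries and 3.51, 3.33 and 3.96 after knockdown, a change of 1.56. The knockdown ratios were all above the control ratios; in counts, INTS6 went from 4.1 to 12.1 times INTS6L. CSTF2 to CSTF2T was -0.21, -0.34 and -0.43 in the control libraries and 0.43, 0.39 and 0.36 after knockdown, a change of 0.72 that turned the order of their counts. Per length CSTF2 was above CSTF2T in both groups, by 1.499 and 2.466 times. The ratio changed by 0.20 for PAPOLA to PAPOLG and by -0.23 for CPSF6 to CPSF7, both without overlap between groups.

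Several members start next to a gene on the other strand, so that both transcripts begin within the same short stretch of DNA. RefSeq starts at most 250 bases apart gave 9 such pairs, chosen after the counts had been seen. Members without a matched promoter window (INTS5, INTS8, INTS9, INTS10, CPSF1 and CPSF4L) could not be searched. In 4 pairs both genes were called, 3 in the same direction and 1 in opposite directions, and in 4 pairs only 1 gene was called. Of all genes tested 71.7% were called, and of the protein-coding ones 77.4%, so these counts say little by themselves. The log2 ratio of member to neighbour was tested in all 9 pairs by an exact permutation test; where the groups separate fully the exact p is 0.1, and 0.15 after Benjamini-Hochberg adjustment over the 9.

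The widest gap was that of INTS14 and SLC24A1, a potassium-dependent sodium-calcium exchanger, whose starts are separated by the 218 bases printed for INTS14. SLC24A1 was at 27.0, 25.7 and 27.4 CPM in the control libraries and at 3.51, 4.98 and 4.68 after knockdown. It fell by 2.61 (SE 0.12, edgeR adjusted p = 1.21e-08) in groups that did not overlap, while INTS14 rose by 0.33. The log2 ratio of INTS14 to SLC24A1 was 2.95 higher after knockdown (exact permutation p = 0.1).

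INTS11 and CPTP, a ceramide-1-phosphate transfer protein, are separated by 141 bases. CPTP was at 28.1, 30.0 and 29.9 CPM in the control libraries and at 25.1, 26.5 and 28.1 after knockdown. Those ranges met at their edges, and CPTP was not called at -0.14 (95% interval -0.30 to 0.01), beside -1.33 for INTS11. CPTP passed the threshold with library size alone (-0.34), with a mean count of at least 50 (-0.20), without control library 1 (-0.20) and without both libraries numbered 1 (-0.16). The ratio of INTS11 to CPTP changed by -1.19 on the log2 scale (exact permutation p = 0.1).

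CPSF4 and PTCD1, a mitochondrial pentatricopeptide protein, are separated by 144 bases. PTCD1 was at 3.91, 3.11 and 4.18 CPM in the control libraries and at 3.12, 2.81 and 3.11 after knockdown. These overlapped, and PTCD1 was not called at -0.31 (95% interval -0.64 to 0.02), beside -1.61 for CPSF4. PTCD1 was called lower with library size alone (-0.51), with a mean count of at least 50 (-0.37) and without control library 2 (-0.44), and was at 0.05, not called, under cyclic loess. The ratio of CPSF4 to PTCD1 changed by -1.31 (exact permutation p = 0.1).

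CSTF3 and the divergent transcript CSTF3-DT moved together. CSTF3-DT had 53, 86 and 94 reads in the control libraries and 14, 23 and 15 after knockdown. Every knockdown library had fewer, and CSTF3-DT fell by 1.78 (SE 0.34, edgeR adjusted p = 6.29e-04), or by 1.18 under cyclic loess. The ratio of CSTF3 to CSTF3-DT changed by -0.44, with overlapping groups (exact permutation p = 0.4). In GENCODE release 29 the genes also overlap, and since the strand setting of the counting is not given, reads of CSTF3 counted for CSTF3-DT cannot be told apart from its own.

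In the other 5 pairs the log2 fold change of the member lay between -0.16 and 0.30. NUDT21 and OGFOD1 were both called higher, at 0.15 and 0.51, and CPSF3 and ITGB1BP1 were both called lower, at -0.16 and -0.17. The ITGB1BP1 call was lost with DESeq2 (adjusted p = 0.0532) and without knockdown library 1 or 2. DTL, a cell cycle ubiquitin ligase subunit, fell by 0.66 (edgeR adjusted p = 8.20e-04), beside 0.18 for INTS7, which was not called, and the ratio changed by 0.86 (exact permutation p = 0.1). SDHAF2 (-0.00) next to CPSF7 and GSTCD (-0.04) next to INTS12 were not called.

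**Figure D5:**
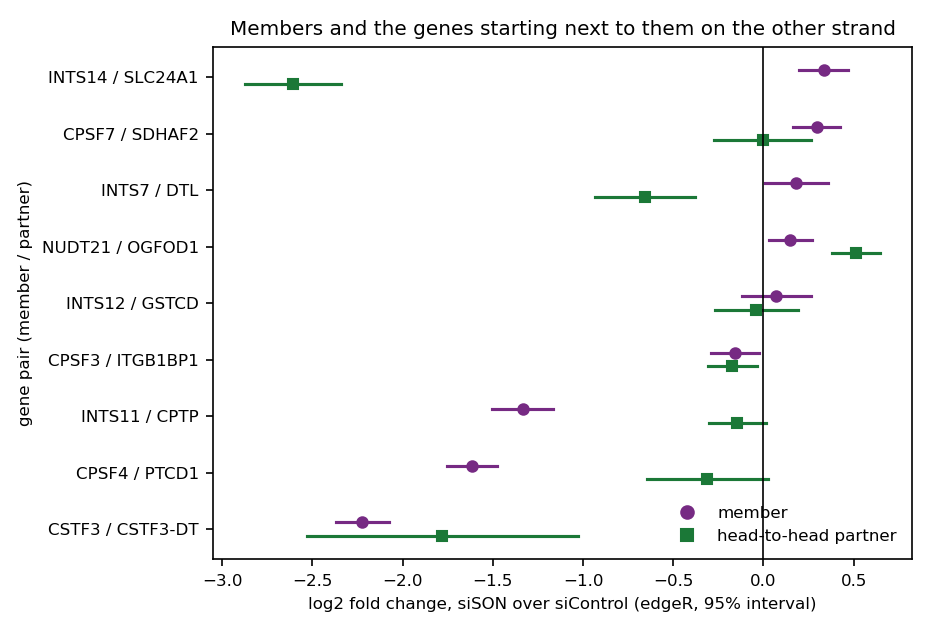
Log2 fold change (siSON over siControl, x axis, edgeR with 95% interval) of 9 members (circles) and of the gene that starts next to each on the other strand (squares). The symbols lie together for CPSF3 and ITGB1BP1 (-0.16 and -0.17) and far apart for INTS14 and SLC24A1 (0.33 and -2.61).

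Members that fell had a median transcript GC content of 54.0%, those that rose 46.4% and those not called 42.8%, beside 53.7%, 47.4% and 47.2% for tested protein-coding genes. The median of each gene's median intron length was 1116 bases in members that fell and 1435 bases in those that rose, beside 1290 and 2190 bases among protein-coding genes. Members had more exons, with medians of 17.0 for those that rose and 17.5 for those that fell, against 10 and 9 among protein-coding genes. Across the 34 members with introns, Spearman's rho of the log2 fold change with median intron length was 0.26, and 0.25 across 12699 protein-coding genes. With transcript GC content it was weaker, at -0.12 across 35 members, beside -0.21 across 13003 protein-coding genes. Genes share libraries and are not independent, so no p is given.

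Genes that work beside these complexes were counted from lists written for this comparison. Of the 56 tested, 45 (80.4%) were called, near the 71.7% of all genes and 77.4% of protein-coding genes. By direction 33 rose and 12 fell, beside 35.2% higher and 36.5% lower among all genes, and the median was 0.29, beside 0.03 for protein-coding genes. With library size alone 43 were called. That scaling shifted the median of all genes by -0.20, so the size of these rises depends on the scaling. The directions of the companion genes were not counted there. Of 8 Integrator partners 6 rose and 1 fell, with a median log2 fold change of 0.53. These include the PP2A scaffold PPP2R1A (0.57), the PP2A catalytic subunits PPP2CA (0.42) and PPP2CB (0.54), and the SOSS subunit INIP (0.97), which partners INTS3. WDR73, an INTS9 and INTS11 partner, was at 29.9, 28.4 and 26.2 CPM in the control libraries and at 65.1, 53.1 and 54.4 after knockdown, a log2 fold change of 1.03 (edgeR adjusted p = 1.12e-06). BRAT1, which also binds INTS9 and INTS11, fell by 0.29.

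Of 16 genes of polymerase II termination 11 rose and 3 fell, with a median of 0.30. Here and for the lists that follow, 35.2% of all genes were called higher and 36.5% lower. RPRD1A, which binds the C-terminal domain of the polymerase, fell by 1.30 (82.3, 85.7 and 86.3 CPM against 34.2, 34.2 and 34.7). XRN2, the 5′ exonuclease that follows the cut, rose by 0.31. Of 7 genes of histone mRNA 3′ ends 3 rose and 2 fell, and CASP8AP2 fell by 1.13 (32.0, 35.8 and 35.6 CPM against 12.3, 16.8 and 18.2). Of 8 tested other poly(A) polymerases and poly(A)-binding genes 4 rose and 2 fell, and ZC3H14, a nuclear poly(A)-binding protein, rose by 1.01 (64.0, 63.8 and 66.6 CPM against 135.2, 130.1 and 126.2).

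Of 6 polymerase pausing genes 3 rose and 2 fell, and NELFCD, a subunit of the negative elongation factor, rose by 1.30 (68.4, 68.8 and 72.2 CPM against 187.6, 157.4 and 171.6). Of 11 genes of small nuclear RNA transcription and export 6 rose and 2 fell. TOE1, a 3′ exonuclease that trims small nuclear RNA, fell by 1.43 (15.6, 16.3 and 15.7 CPM against 4.69, 6.84 and 6.10). The groups did not overlap in the 6 companion genes given by library, which were chosen by size, nor in 75.1% of all genes.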

How the data were processed

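The deposited table holds raw counts of reads per gene, whole numbers made by the authors, with 1 column for each of the 6 libraries. Per the submitters' processing notes, cutadapt 1.16, STAR 2.5.2a, featureCounts 1.6.2, DESeq2 1.28.1 and hg38 were used. The annotation release, whether strand was used and how multi-mapping reads were treated are not given in the sources used here. All 58735 identifiers matched GENCODE release 29, with 99.51% of names.

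Counts were fitted with edgeR 4.0.16 under R 4.3.3 (filterByExpr with a minimum count of 10, TMM scaling, robust quasi-likelihood test of siSON against siControl). P-values were adjusted by Benjamini-Hochberg over all 16591 genes tested, and genes under 0.05 were called. Every adjusted p in the text is from this test unless another is named. The script was tested on simulated data. CPM uses TMM-scaled library sizes, and ± is the SD of 3 libraries. A count of 3 was 0.0430 to 0.0550 CPM on library sizes without TMM factors, which covers counting error only.

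The members and lists were chosen with earlier results of these data known. Values in all libraries were given for members called at 1.5-fold or more, or the one with the smallest adjusted p of a subgroup without any, and for companion genes called at 2-fold or more; further genes were named after their values were seen. Alternatives were DESeq2 1.42.0, limma 3.58.1 voom, RLE factors, library size alone, 2 other filters, a 1.5-fold test, a replicate block and each library left out; cyclic loess and leaving out both libraries numbered 1 were chosen after seeing the data. For 6 members no promoter window was matched, and protein sequences were not used here.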

Additional observations from a re-analysis of the deposited data

How the results depend on the processing

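The members called numbered 27 (15 higher, 12 lower), 24 to 28 over alternatives other than the 1.5-fold test, which left 15 (8 higher, 7 lower) and 6126 of 11888 genes because its threshold is stricter. Leaving out 1 library gave 24 to 27 members. What a replicate number stands for is not stated. Same-numbered libraries correlated at 0.0461 to 0.194 in their deviations from the group mean, not all over 0.1. Libraries with different numbers correlated at -0.138 to 0.0286, below every same-numbered value. The main fit did not use a replicate block. With the replicate block 28 members and 12313 genes were called, INTS7 passed (0.18, adjusted p = 0.0144) and SDHAF2 was 0.00096. Scaling by library size alone shifted the median of all genes by -0.20 and the share of called genes that were higher from 49.1% (RLE factors) to 37.7%, giving 12 members higher and 13 lower. Signs turned there for INTS7 (-0.014), INTS12 (-0.13), INTS8 (-0.13), CSTF2T (-0.15), CPSF6 (-0.14), INTS6 (-0.20), NUDT21 (-0.047) and SYMPK (-0.090), and CPSF2 was called at -0.24. Cyclic loess shifted the median by 0.14 and gave 13 higher and 15 lower; signs turned for INTS8 (-0.022), CPSF6 (-0.17), INTS6 (-0.091), NUDT21 (-0.15), SYMPK (-0.081), PTCD1 (0.054) and SDHAF2 (0.30). A mean count of at least 50 gave CSTF2T -0.0088 and INTS6 -0.054. Without both libraries numbered 1, INTS12 was -0.019, INTS8 -0.039, INTS6 -0.091, GSTCD 0.025 and SDHAF2 0.044. SDHAF2 was also 0.0051 with DESeq2, 0.0040 with limma-voom and 0.00058 without a filter. Leaving out 1 library gave -0.0085 to 0.14 for INTS12, -0.057 to 0.11 for INTS8, -0.015 to 0.10 for CSTF2T, -0.10 to 0.039 for INTS6, -0.094 to 0.033 for CPSF2, -0.098 to 0.094 for GSTCD and -0.091 to 0.078 for SDHAF2. The sign of the first 4 of these turned without control replicate 1. The causes were not tested. All members called at 1.5-fold or more kept their direction and their call in each alternative except the 1.5-fold test. Groups of 3 were too small to test for a library that stands apart.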
